A study of Mus musculus with 48 samples.

Results

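Aminoacyl-tRNA synthetases are the enzymes that load each amino acid onto its tRNA. The 36 mouse genes described here encode 20 proteins of the cytosolic set and 16 of the mitochondrial set, out of 55335 gene rows in each of 4 tables of FPKM (fragments per kilobase of transcript, scaled to sequencing depth). Members were chosen by symbol, and the mitochondrial set holds the symbols that end in 2. Of the 36, 35 were found under their own symbol and 1, Mars1, under its older symbol Mars.

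The 27 libraries used here form 9 groups of 3, all labelled C57BL/6J and wild type. Of these, 6 groups are MLO-Y4 cells, a murine osteocyte-like line grown with fetal bovine serum, so that these groups rest on 1 line. Recipient cells were given the supernatant of oligomycin A-treated or of vehicle-treated MLO-Y4 cultures for 2 h (oligomycin A supernatant, vehicle supernatant). The donor treatments were sequenced as well, and these cells spent 1 h in fresh medium with oligomycin A, an inhibitor of the mitochondrial ATP synthase, at 50 µM, or with the DMSO vehicle alone. The protocol gives 50 mM as the stock concentration, whereas the treatment labels print 50 mM as the dose and name oligomycin A for the vehicle samples too, so the groups follow the titles and the protocol. MLO-Y4 cells were also given 2 µM ADP or no ADP, for 2 h. Bone fragments from 1-month-old mice were sampled after medium transfer and as controls, at 48 h after an exchange of medium that followed 24 h of culture ex vivo. The labels do not say which donor age supplied the medium to either of these groups. Untreated cortical bone of femur and tibia came from 18-month-old mice, and its protocol states that nonosseous tissue including marrow was harvested with it. Separate cultures or animals are not stated for the replicates, so a p-value refers to the spread of the sampled libraries alone, and that spread may be technical.

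Each synthetase recognises its amino acid and the matching tRNAs, and the loaded tRNA then delivers the amino acid to the ribosome. Translation in the cytosol and inside mitochondria mostly uses separate, nucleus-encoded enzymes, although Gars and Kars each encode both forms and glutamine is loaded in mitochondria by an indirect route that starts from Ears2. Several cytosolic enzymes sit together in the multisynthetase complex. Uncharged tRNA activates the kinase Gcn2, translation of the transcription factor Atf4 then increases, and genes for cytosolic synthetases are known targets of Atf4. Osteocytes are the cells embedded in bone matrix, and in bone the enzymes are housekeeping genes.

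Depth could be estimated only roughly from the smallest steps of the FPKM values, at 15.3 M to 20.8 M fragments for the oligomycin A experiment, 21.5 M to 25.9 M for the ADP experiment, 29.1 M to 35.9 M for the old cortical bone and 1.57 M to 6.42 M for the young bone. Vehicle replicate 2 stood apart, since rRNA-like genes and 7S RNA made up 23.0% of the FPKM listed for it and no more than 0.334% of any other library in that experiment. In the young bone, satellite-like repeat genes took 5.80% of the summed FPKM in medium transfer replicate 2 but 66.1% to 89.9% in the other 5 libraries. MLO-Y4 libraries reached 1 FPKM for 4 of 8 osteocyte markers. Erythroid markers summed to 356799 to 379322 FPKM and neutrophil markers to 102049 to 107065 FPKM in the old cortical bone.

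In MLO-Y4 cells every cytosolic gene was expressed above the mitochondrial gene for the same amino acid. Per length, the cytosolic set summed to 649 ± 1.01 FPKM and the mitochondrial set to 52.7 ± 1.56 FPKM in cells without ADP (SD, n = 3), a ratio of 12.3. Of 17 pairs of a cytosolic and a mitochondrial gene for the same amino acid, all 17 had every cytosolic library above every mitochondrial library in these cells, with ratios of the mean FPKM between 3.73 for Iars over Iars2 and 44.3 for Nars over Nars2. Gars, the glycine enzyme of both compartments, had the highest level of the cytosolic set, at 82.9, 84.6 and 80.3 FPKM. Qars, the glutamine enzyme, had the lowest, at 5.78, 6.04 and 5.86 FPKM. The gap between Gars and Qars was far wider than the spread over libraries.

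Among mitochondrial members in the same cells, Iars2 was highest at 7.81, 8.19 and 7.68 FPKM, followed by Tars2 at 6.60 ± 0.48 and Rars2 at 6.23 ± 1.01 FPKM, which overlapped each other. Pars2, the mitochondrial proline enzyme, was lowest at 0.579, 0.452 and 0.730 FPKM. It averaged under 1 FPKM in every MLO-Y4 group and was tested in none.

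In the old cortical bone the order of the members differed. The cytosolic set summed to 178 ± 14.8 FPKM and the mitochondrial set to 23.4 ± 2.10 FPKM (SD, n = 3). Hars, the histidine enzyme, was highest at 35.2, 33.5 and 41.3 FPKM, and Qars was again lowest of the cytosolic set at 1.84, 1.81 and 1.68 FPKM. Yars2 and Rars2 led the mitochondrial set at 3.47 ± 1.20 and 3.27 ± 0.40 FPKM, and the libraries of these genes overlapped. Wars2 was lowest, at 0.416, 0.201 and 0.184 FPKM. Every cytosolic library lay above every mitochondrial library in 15 of 17 pairs, the exceptions being Iars with Iars2 and Yars with Yars2. Within each of the 3 libraries, the cytosolic gene was the higher in both of these pairs too. These tables were normalised separately and the bone held abundant erythroid and neutrophil transcripts, so no test against MLO-Y4 was made. In such bulk samples, fewer cells of a type and less RNA per cell cannot be told apart.

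**Figure D1:**
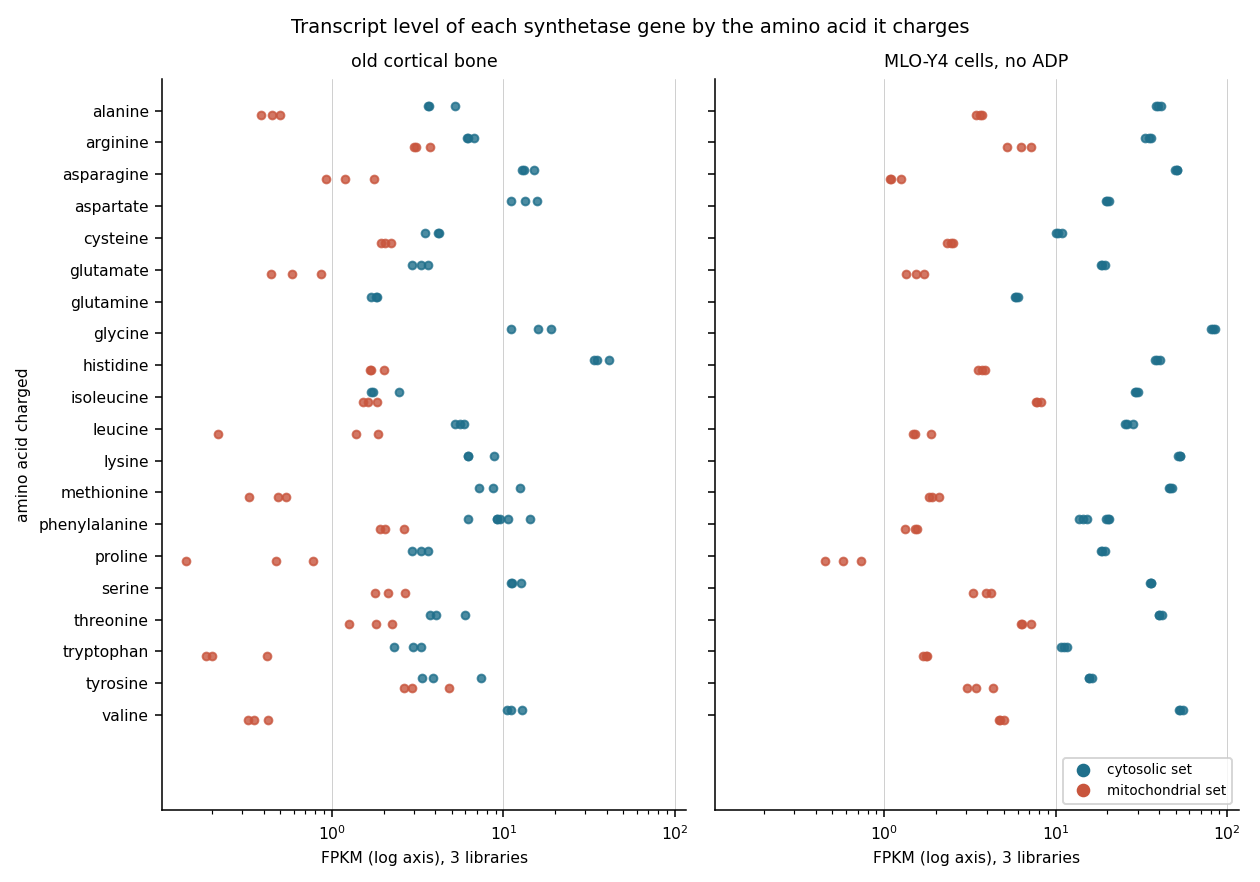
Level of each synthetase gene in FPKM (log axis, 1 point per library, 3 libraries per group) by the amino acid it charges, in old cortical bone (left) and in MLO-Y4 cells without ADP (right). Eprs stands in both the glutamate and the proline row. The cytosolic set lies to the right of the mitochondrial set in all 17 pairs in MLO-Y4 cells, whereas the isoleucine and tyrosine pairs overlap in old bone.

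Most of the called synthetase genes were higher in cells given vehicle supernatant for 2 h than in the vehicle cells that had spent 1 h in fresh medium with DMSO. Of the 20 cytosolic members, 10 were higher and 0 lower in the supernatant recipients at a limma adjusted p below 0.05 on log2(FPKM + 1), against 9.49% of all 11902 tested genes higher and 5.18% lower. The median log2 difference was 0.33 for the cytosolic set, -0.03 for the 14 mitochondrial members tested and 0.03 for all genes. Rars2 alone was called in the mitochondrial set, as higher. The cytosolic median minus the mitochondrial median was 0.35. Folds of genes with low FPKM are understated on this scale. Over all genes the split of 1129 higher and 617 lower became 484 and 102 with every library rescaled to the same total, where the all-gene median was 0.14, the cytosolic median 0.45 and the mitochondrial median 0.07, and 1094 and 1115 with median-of-ratios scaling. The cytosolic median was positive under each scaling.

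The 3 vehicle supernatant libraries lay above the 3 vehicle libraries for 14 of 20 cytosolic members, as for 21.6% of all genes. They lay above for 2 of 14 mitochondrial members (Mars2 and Rars2) and below for 2 (Aars2 and Lars2), 14.3% each way, beside 21.6% above and 12.6% below over all genes. Summed over the cytosolic set, the libraries had 790, 617 and 667 FPKM in vehicle supernatant recipients, against 566, 487 and 543 FPKM in vehicle cells. Over the mitochondrial set they had 42.3, 42.6 and 45.8 FPKM in recipients, against 41.6, 40.8 and 43.9 FPKM in vehicle cells. The cytosolic sums of the groups did not overlap, and the mitochondrial sums did.

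**Figure D2:**
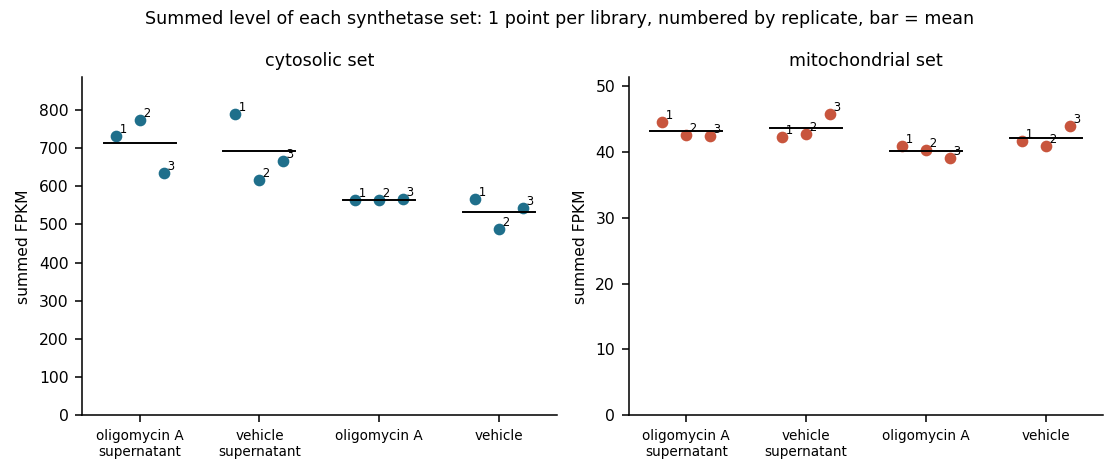
Summed FPKM of the 20 cytosolic (left) and 16 mitochondrial (right) synthetase genes in each library of the oligomycin A experiment, numbered by replicate, with the group mean as a bar. Both groups given supernatant lie above both groups of directly treated cells in the cytosolic panel, between 617 and 790 FPKM against 487 to 567 FPKM.

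Of the 8 members whose proteins belong to the multisynthetase complex, 4 were called higher in vehicle supernatant recipients, with a median log2 difference of 0.25. Eprs, which charges tRNAs for both glutamate and proline, had 26.3, 20.03 and 20.8 FPKM in recipients, against 16.5, 13.2 and 15.4 FPKM in vehicle cells. Its log2 difference was 0.54 ± 0.13 (SE, limma adjusted p = 0.0160). Lars, the leucine enzyme, had 33.7, 26.1 and 29.8 FPKM in recipients, against 21.8, 20.5 and 19.3 FPKM in vehicle cells, a log2 difference of 0.51 ± 0.11 (limma adjusted p = 0.0130). The leucine and glutamate-proline enzymes thus stood above their vehicle libraries in all 3 recipient libraries. Mars1, the methionine enzyme, had 44.4, 40.2 and 44.2 FPKM in recipients, against 37.9, 32.1 and 35.3 FPKM in vehicle cells (log2 difference 0.29 ± 0.07, limma adjusted p = 0.0233). Rars, the arginine enzyme, had 26.2, 24.8 and 25.3 FPKM in recipients, against 22.2, 20.3 and 23.1 FPKM in vehicle cells (log2 difference 0.21 ± 0.06, limma adjusted p = 0.0303). The groups overlapped for neither gene. The other 4 complex members did not pass: the isoleucine enzyme Iars differed by 0.46 ± 0.16, Kars by 0.12, Dars by 0.08 and Qars by -0.09 on the log2 scale.

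Of the 12 cytosolic members outside the complex, 6 were called higher, with a median log2 difference of 0.36. Farsb, the beta subunit of the phenylalanine enzyme, had 15.8, 13.8 and 15.2 FPKM in vehicle supernatant recipients, against 10.5, 10.3 and 11.97 FPKM in vehicle cells. Its log2 difference of 0.42 ± 0.07 had the lowest limma adjusted p of the synthetases, 0.00408. Farsa, which encodes the alpha subunit of the same enzyme, had 13.4, 12.3 and 12.1 FPKM in recipients, against 11.1, 9.69 and 11.9 FPKM in vehicle cells, and its difference of 0.19 ± 0.07 did not pass (limma adjusted p = 0.0953). Whether the subunit genes differed from each other in this was not tested. Tars, the threonine enzyme, had 58.5, 44.5 and 47.3 FPKM in recipients, against 37.4, 32.8 and 35.1 FPKM in vehicle cells (log2 difference 0.49 ± 0.10, limma adjusted p = 0.0107). Gars had 114, 78.0 and 85.4 FPKM in recipients, against 67.2, 57.5 and 64.7 FPKM in vehicle cells (log2 difference 0.53 ± 0.13, limma adjusted p = 0.0193). Neither gene's groups overlapped, and recipient replicate 1 was the highest library for both.

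Nars, the asparagine enzyme, had 66.8, 53.5 and 57.0 FPKM in vehicle supernatant recipients, against 49.2, 38.3 and 44.97 FPKM in vehicle cells (log2 difference 0.41 ± 0.10, limma adjusted p = 0.0164). Aars, the alanine enzyme, had 80.7, 57.3 and 64.8 FPKM in recipients, against 52.2, 43.4 and 46.7 FPKM in vehicle cells (log2 difference 0.49 ± 0.13, limma adjusted p = 0.0254). Yars, the tyrosine enzyme, had 23.7, 18.8 and 18.8 FPKM in recipients, against 16.7, 15.5 and 16.1 FPKM in vehicle cells (log2 difference 0.32 ± 0.09, limma adjusted p = 0.0381). For all 3 genes the lowest recipient library was above the highest vehicle library. The members that did not pass were Cars at 0.40, Sars at 0.33, Wars at 0.28, Vars at 0.19 and Hars at 0.13 on the log2 scale, besides Farsa. Wars, the tryptophan enzyme, varied most, with 24.2, 10.9 and 17.7 FPKM in recipients and 13.4, 12.7 and 14.7 FPKM in vehicle cells.

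**Figure D3:**
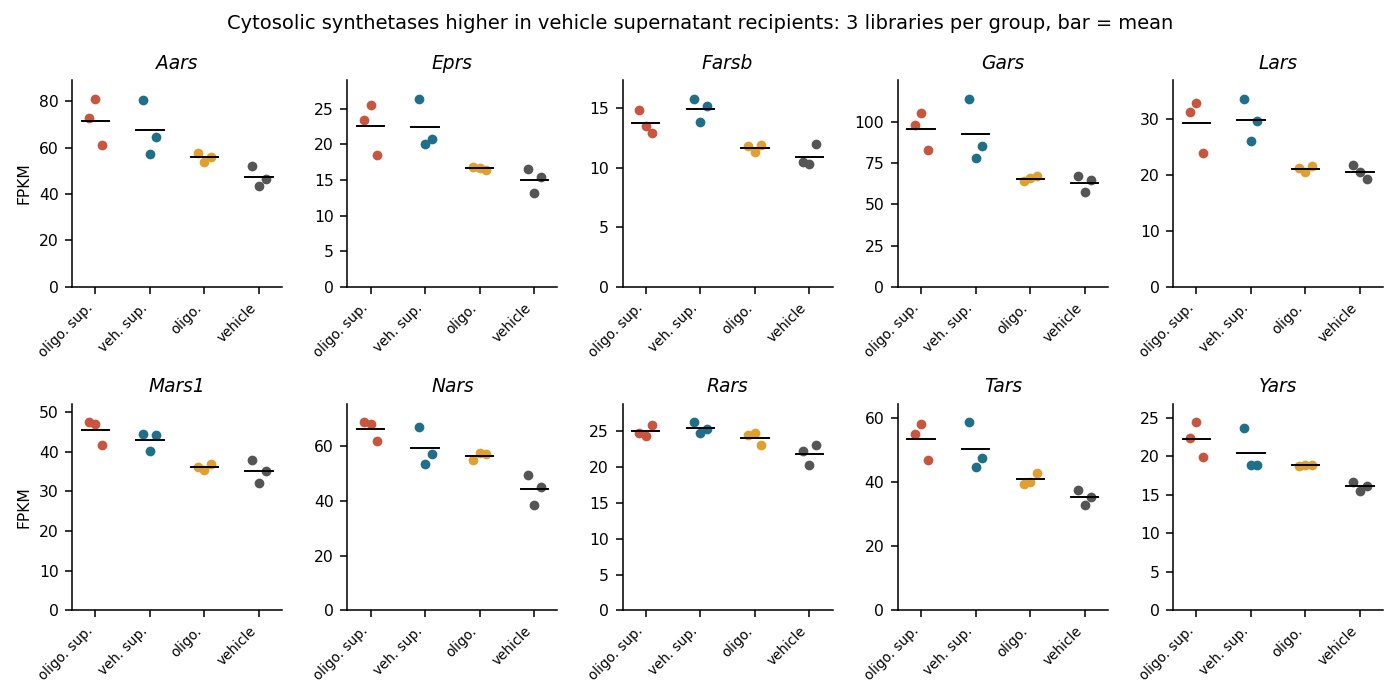
FPKM of the 10 cytosolic synthetase genes that were higher in vehicle supernatant recipients than in vehicle cells, in each library of the 4 groups of the oligomycin A experiment (bar, mean of 3 libraries). In every panel the vehicle supernatant points lie above the vehicle points, and the oligomycin A supernatant points reach a similar range.

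In the mitochondrial set, Rars2, the arginine enzyme, had 4.49, 4.64 and 4.89 FPKM in vehicle supernatant recipients, against 4.01, 3.97 and 3.75 FPKM in vehicle cells. Its log2 difference was 0.21 ± 0.05 (limma adjusted p = 0.0263). The other 13 tested members ranged from -0.22 for Aars2 (limma adjusted p = 0.0938) to 0.22 for Mars2 (limma adjusted p = 0.0609), and 6 of the 14 were positive, against 19 of 20 in the cytosolic set.

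The size of the cytosolic count rested partly on single libraries. Without vehicle supernatant replicate 1, the highest library of its group for 18 of 20 members, 3 members were called (Farsb, Gars and Tars), and without vehicle replicate 2, the lowest for 19 of 20, 4 were called (Farsb, Lars, Nars and Tars). A fit of only these 6 libraries called 4 (Eprs, Farsb, Lars and Tars) and rescaling to the same total called 6. The recipients and the vehicle cells also differed in medium and in length of exposure, and these cannot be told apart.

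The proximal promoters of the members were searched for the letters TGATGNAA. These are part of a composite element that Atf4 with its partners is known to bind. Windows of 250 bases before to 50 bases after the start were taken from RefSeq (GRCm38.p6), and both strands were searched, the opposite strand reading TTNCATCA. Of the 36 members, 27 had a window in the table. A gene was counted if any of its windows held the letters. They were present for 5 of 13 cytosolic genes (38.5%) and 0 of 14 mitochondrial genes. This compares with 4.51% of all 27025 genes with a window and 2.53% of 8103 such genes tested in the oligomycin A experiment. The holders were Aars, with 2 matches that are not printed here, and Gars, Iars, Tars and Yars. Of the 5 holders 4 were called higher in vehicle supernatant recipients, as were 3 of the 8 listed cytosolic genes without the letters. So were 3 of the 7 cytosolic genes that had no window. These calls rested partly on single libraries, as given above, and a link between the letters and the calls was not tested. Of 26 amino acid response genes with a window, 9 held them (34.6%). For Gars, Iars, Tars and Yars, the 30 bases around 1 match each are printed on the gene's strand, with the 8 matching letters in capitals, so that the shared core can be compared.
Gars: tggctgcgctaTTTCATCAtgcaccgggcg
Iars: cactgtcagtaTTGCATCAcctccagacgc
Tars: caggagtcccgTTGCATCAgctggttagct
Yars: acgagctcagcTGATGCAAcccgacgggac
The windows lie at chr6:55037960-55037989 (plus strand) for Gars, chr13:49682126-49682155 (plus) for Iars, chr15:11399655-11399684 (minus) for Tars and chr4:129189895-129189924 (plus) for Yars. Of these, the match is on the opposite strand to the gene in all but Yars. It lies 30 and 15 bases before the start in Gars and Tars, and 7 and 3 bases after it in Iars and Yars. A match is a description of letters and not of binding.

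Direct exposure to oligomycin A for 1 h gave no called change in the cytosolic set. At a limma adjusted p below 0.05, 0 of 20 cytosolic members were higher and 0 lower than in vehicle cells, against 3.71% of all genes higher and 1.63% lower, while 3 had an unadjusted limma p below 0.05, as did 22.2% of all genes. The split over all genes, 442 higher and 194 lower, became 256 and 19 with libraries rescaled to the same total and 705 and 522 with quantile normalization, and it turned to 286 higher and 366 lower without vehicle replicate 2. The median log2 difference was 0.07 for the cytosolic set and -0.04 for the mitochondrial set, or 0.22 and 0.06 with libraries rescaled to the same total, where that of all genes was 0.12. This comparison and the vehicle supernatant comparison above share the vehicle libraries. Oligomycin A libraries lay above vehicle libraries for 6 of 20 cytosolic members and below for 1, against 16.8% of all genes above and 13.1% below. Nars came nearest, with 55.0, 57.6 and 56.9 FPKM in oligomycin A cells, against 49.2, 38.3 and 44.97 FPKM in vehicle cells (log2 difference 0.35 ± 0.10, limma adjusted p = 0.0568). Wars was the member below, with 8.02, 11.8 and 6.74 FPKM in oligomycin A cells, against 13.4, 12.7 and 14.7 FPKM in vehicle cells. Its log2 difference of -0.60 ± 0.30 had a limma adjusted p of 0.274.

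Mitochondrial members called after oligomycin A were Mars2, as lower, and Rars2, as higher. Mars2, the methionine enzyme, had 1.27, 1.39 and 1.42 FPKM in oligomycin A cells, against 2.10, 1.90 and 1.91 FPKM in vehicle cells. Its log2 difference was -0.33 ± 0.07 (limma adjusted p = 0.0266). Rars2 had 4.86, 4.56 and 4.61 FPKM in oligomycin A cells, against 4.01, 3.97 and 3.75 FPKM in vehicle cells (log2 difference 0.21 ± 0.05, limma adjusted p = 0.0483). Oligomycin A and vehicle libraries were fully separated for both genes, as they were for Hars2, Sars2 and Yars2, which had lower values after oligomycin A without passing. That made 1 of 14 mitochondrial members above and 4 below, beside the same shares of all genes, 16.8% and 13.1%. Mars2 was called in 7 and Rars2 in 5 of 16 other settings of the analysis, and neither was called when only these 6 libraries were fitted. Mars1 overlaps Ddit3 on the opposite strand by 68 bases, and whether counting used strand is not stated. Mars1 had 36.2 ± 0.77 FPKM in oligomycin A cells and 35.1 ± 2.89 FPKM in vehicle cells (SD, n = 3), while Ddit3 averaged 418 FPKM in oligomycin A cells and 48.6 FPKM in vehicle cells. Hars and Hars2 overlap by 198 bases in the same way.

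**Figure D4:**
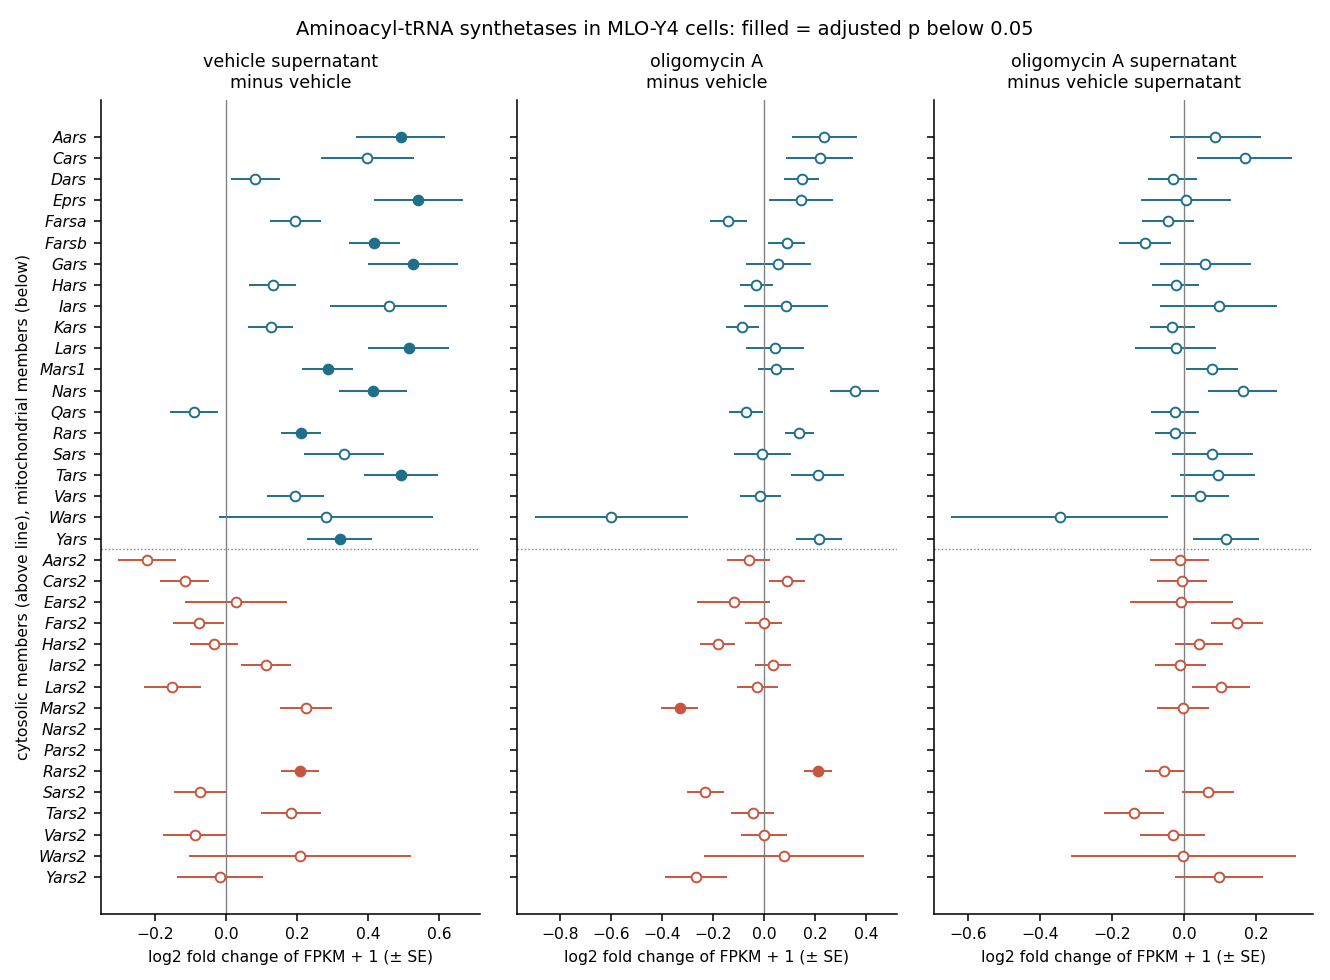
Log2 fold change of FPKM + 1 (± SE, limma, 3 libraries per group) of each synthetase gene in 3 comparisons of the oligomycin A experiment, cytosolic members above the dotted line and mitochondrial members below. Filled points passed an adjusted p of 0.05: 10 cytosolic genes and Rars2 in the left panel, Mars2 and Rars2 in the middle panel and none in the right panel. Nars2 and Pars2 averaged under 1 FPKM and have no point.

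No synthetase gene was called between cells given supernatant of oligomycin A-treated cultures and cells given vehicle supernatant. The count was 0 of 20 cytosolic and 0 of 14 mitochondrial members, against 0.277% of all genes higher and 0.109% lower. None had an unadjusted limma p below 0.05, where 8.08% of all genes did, and the lowest limma adjusted p was 0.679. Median log2 differences were 0.02 for the cytosolic and -0.0048 for the mitochondrial set, and for all 34 tested members the groups overlapped. Gars, for example, had 98.1, 105 and 82.9 FPKM in oligomycin A supernatant recipients, against 114, 78.0 and 85.4 FPKM in vehicle supernatant recipients. Summed over the cytosolic set, the libraries had 733, 773 and 636 FPKM in oligomycin A supernatant recipients, against 790, 617 and 667 FPKM in vehicle supernatant recipients. The SE of single members ranged from 0.05 to 0.31 on the log2 scale.

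The recipient response minus the direct response passed for 0 of 34 members, against 0.084% of all genes positive and 0.361% negative. At an unadjusted limma p below 0.05 there were 4, the mitochondrial genes Hars2, Mars2, Rars2 and Sars2, where 10.7% of all genes had such a p, and the smallest limma adjusted p was 0.222. The difference was 0.33 ± 0.10 for Mars2 and -0.27 ± 0.08 for Rars2 on the log2 scale.

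Genes that work with the synthetases were followed through lists of pathway genes. The 28 tested amino acid response genes, which include known targets of Atf4, had 10 higher and 0 lower in vehicle supernatant recipients, led by Trib3, a pseudokinase that restrains Atf4, at a log2 difference of 1.26 ± 0.21, the serine synthesis genes Psat1 at 0.50 ± 0.09 and Psph at 0.40 ± 0.09, and the cysteine synthesis gene Cth at 0.62 ± 0.13. Over all genes in this comparison, 9.49% were higher and 5.18% lower. The count of amino acid response genes called was 5 without vehicle replicate 2 and 5 without vehicle supernatant replicate 1. Oligomycin A cells also had 10 of the 28 higher and 0 lower, relative to vehicle cells, led by other genes: Ddit3, the stress transcription factor also called Chop, at 3.08 ± 0.12, Ddit4, an inhibitor of mTOR signalling, at 1.63 ± 0.10, Chac1, a glutathione-degrading enzyme, at 2.27 ± 0.15, and Slc38a2, a neutral amino acid transporter, at 0.69 ± 0.05. Of these 4, none was called between vehicle supernatant recipients and vehicle cells, where the log2 difference of Ddit3 was -0.15 ± 0.12. After oligomycin A, 3.71% of all genes were higher and 1.63% lower. Oligomycin A supernatant recipients had 6 of 28 higher and 0 lower than vehicle supernatant recipients, led by Ddit3 at 1.18 ± 0.12 and Chac1 at 1.38 ± 0.15. Of all genes, 0.277% were higher there and 0.109% lower. These comparisons share libraries, so the lists are not independent of each other.

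In vehicle supernatant recipients, 2 of 15 tRNA charging partners were higher and 0 lower: Eef1e1, a scaffold of the multisynthetase complex, at 0.46 ± 0.08, and Xpot, the exporter of tRNA from the nucleus, at 0.59 ± 0.13. The share of all genes called in this comparison was 9.49% higher and 5.18% lower, and the count for the charging partners was near it. Cytosolic translation factors had 7 of 27 higher, led by the ribosome recycling factor Abce1 at 0.32 ± 0.06 and the termination factor Gspt1 at 0.47 ± 0.09. Mitochondrial translation factors had 6 of 21 higher, led by the tRNA pseudouridine synthase Pus1 at 0.50 ± 0.06 and the tRNA methyltransferase Trmt5 at 0.45 ± 0.07. Neither list had a member called lower, and the mitochondrial factors called were 4 without vehicle replicate 2 and 3 without vehicle supernatant replicate 1. No amino acid sensing kinase gene, a list of 7 that includes the uncharged tRNA sensor Gcn2 (Eif2ak4), was called in any comparison, and no member of these pathway lists was called after ADP or in young bone. After oligomycin A, 0 of 15 charging partners, 0 of 27 cytosolic and 0 of 21 mitochondrial translation factors were called, against 2 charging partners and 3 cytosolic factors without vehicle replicate 2. Some cell type markers also differed between vehicle supernatant recipients and vehicle cells. The fibroblast markers Dcn, Prrx1 and Pdgfra, 3 of 3 tested from a list of 6, were higher in recipients. So were the osteocyte markers Pdpn and Phex, 2 of 4 tested, and the osteoclast marker Ctsk, 1 of 2. The plasma cell marker Sdc1, 1 of 2, and the neutrophil marker S100a8, 1 of 3, were higher too. Of the osteoblast (4 tested), proliferation (8), B cell (1), erythroid (1) and adipocyte (1) markers, none was called. The macrophage marker Cd68, the 1 tested of its list, was lower, at 0.520 FPKM in recipients and 1.62 FPKM in vehicle cells. Fibroblast markers summed to 145 to 164 FPKM in vehicle supernatant recipients and 116 to 126 FPKM in vehicle cells, and the part of these markers in the result was not tested.

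The tRNA substrates of the mitochondrial enzymes are encoded by the mitochondrial genome itself. In oligomycin A cells, 1.63% of all genes were lower than in vehicle cells and 3.71% higher. Of 19 tested mitochondrial tRNA genes, 8 were lower and 0 higher there. They were led by mt-Tl1, a leucine tRNA and thus a substrate of Lars2, which averaged 36.9 FPKM in oligomycin A cells and 184 FPKM in vehicle cells, a log2 difference of -2.28 ± 0.08 (limma adjusted p = 2.38e-08). The other leucine tRNA, mt-Tl2, differed by -1.56 ± 0.16 and the methionine tRNA mt-Tm, a substrate of Mars2, by -1.68 ± 0.18 on the log2 scale. Lars2 itself had 1.20, 1.13 and 1.36 FPKM in oligomycin A cells, against 1.29, 1.19 and 1.34 FPKM in vehicle cells, and was not called. In oligomycin A supernatant recipients, mt-Tl1 and the threonine tRNA mt-Tt were lower than in vehicle supernatant recipients, at -1.15 ± 0.08 and -1.16 ± 0.17. Of all genes, 0.109% were lower there and 0.277% higher. Between vehicle supernatant recipients and vehicle cells, 1 of the 19, the proline tRNA mt-Tp, was lower, at -0.27 (limma adjusted p = 0.0478). That count was near the share of all genes called lower, 5.18%. It was 3 without vehicle replicate 2 and 0 without vehicle supernatant replicate 1. These libraries were poly(A)-selected, and how far the values of tRNA genes measure mature tRNA was not tested.

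No synthetase gene was called after exposure to ADP, a nucleotide that cells release and sense through purinergic receptors. At a limma adjusted p below 0.05, 0 of 20 cytosolic and 0 of 15 mitochondrial members differed between 2 µM ADP and no ADP, against 0.0517% of all 11604 genes higher and 0.00862% lower. An unadjusted limma p below 0.05 was found for 1 member, Wars2, and for 5.84% of all genes. Cytosolic log2 differences lay between -0.05 and 0.08, with a largest SE of 0.09. Gars, the highest member, had 81.8, 80.9 and 82.2 FPKM with ADP, against 82.9, 84.6 and 80.3 FPKM without. Wars2, the mitochondrial tryptophan enzyme, had 1.00, 1.05 and 1.59 FPKM with ADP, against 1.79, 1.75 and 1.68 FPKM without, a log2 difference of -0.32 ± 0.11 with a limma adjusted p of 0.842. Its groups did not overlap, and among cytosolic members the ADP libraries lay above those without ADP for 1 of 20 and below for 1, as for 5.33% and 5.27% of all genes.

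In young bone given transferred medium, Lars2 was the only synthetase gene called, and its libraries divided within the control group. Lars2, the mitochondrial leucine enzyme at chr9:123366927-123462666 (plus strand, GENCODE M21, GRCm38), had 242, 501 and 312 FPKM in medium transfer libraries, against 265, 0.883 and 0.812 FPKM in control libraries. All 3 transfer libraries and control replicate 1 were high, the other 2 control libraries were at the level of other mitochondrial members, and the groups overlapped. The log2 difference was 5.12 ± 0.91 with a limma adjusted p of 0.000174, where 0.0122% of 16438 tested genes were called higher and 0.0122% lower. That SE is moderated by the spread of other genes: the unmoderated SE was 2.41, and a two-sided exact permutation test over the 6 libraries gave p = 0.2, where 0.1 is the smallest p possible. The SD of Lars2 over the control libraries, 4.14 on the log2 scale, ranked 1 among the tested genes. The call was present in 6 of 16 other settings and absent without medium transfer replicate 1, medium transfer replicate 3, control replicate 2 or control replicate 3.

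Lars2 ranked 77, 79 and 43 by FPKM among all genes of the 3 transfer libraries, and 50, 14808 and 18488 in the control libraries. Where it was high it held most of the mitochondrial set's FPKM, 95.7% in control replicate 1. In MLO-Y4 cells it lay between 0.911 and 1.89 FPKM, and in old cortical bone it had 0.216, 1.85 and 1.37 FPKM. The cytosolic leucine gene Lars had 4.89, 9.98 and 1.92 FPKM in transfer libraries, against 2.32, 2.16 and 3.04 FPKM in control libraries. Satellite-like genes took 66.1%, 5.80% and 89.9% of the FPKM in the transfer libraries, against 86.1%, 88.6% and 81.7% in the controls. The part of these genes in the Lars2 result was not tested.

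**Figure D5:**
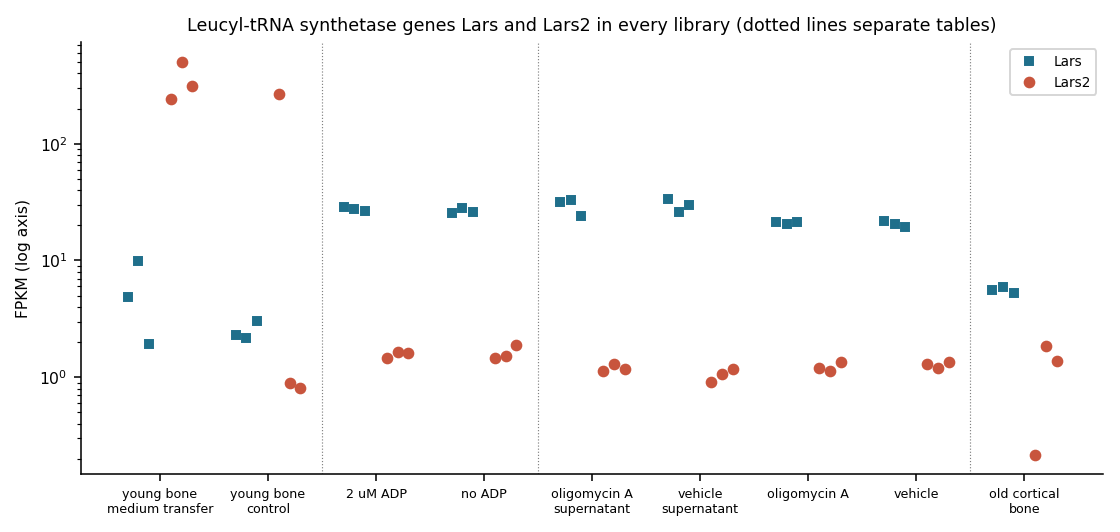
FPKM (log axis) of the cytosolic leucyl-tRNA synthetase gene Lars (squares) and the mitochondrial gene Lars2 (circles) in each of the 27 libraries, by group, with dotted lines between tables that were normalised separately. Lars2 lies between 242 and 501 FPKM in 4 young bone libraries and at or below 1.89 FPKM in all others.

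The other synthetases were not called in young bone: 0 of 20 cytosolic members passed, and the lowest limma adjusted p was 0.900. None of the 20 had an unadjusted limma p below 0.05, where 2.24% of all genes did. All 20 had positive log2 differences, with a median of 0.78 beside 0.45 for all genes and 0.57 for the 11 mitochondrial members tested, and 13994 of all 16438 genes were positive too. Without medium transfer replicate 2 the medians were 0.18 for the cytosolic set, 0.31 for the mitochondrial set and 0.29 for all genes, so that the order turned. Medium transfer replicate 2 was the highest library of its group for all 20 cytosolic members and replicate 3 the lowest for all 20. Summed over the set, the libraries had 136, 394 and 61.2 FPKM after medium transfer, against 78.2, 67.2 and 96.0 FPKM in controls, so the groups overlapped. Nars was the highest cytosolic member in controls, with 11.7, 34.2 and 11.3 FPKM after medium transfer, against 11.4, 8.76 and 15.3 FPKM in controls. Qars was the lowest, with 1.48, 2.83 and 0.872 FPKM after medium transfer, against 0.907, 1.20 and 1.41 FPKM in controls. With satellite-like, rRNA-like, 7S and mitochondrially encoded genes left out of the scaling, the medians were 0.22 for the cytosolic set, 0.12 for the mitochondrial set and 0.02 for all genes. The SE of single cytosolic members ranged from 0.61 to 0.82 on the log2 scale, so changes of the size seen in MLO-Y4 cells were not detectable in these libraries.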

How the data were processed

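The authors deposited FPKM values per gene and library in 4 tables; poly(A)-selected RNA was sequenced on an Illumina NovaSeq 6000, per the labels' protocols, and HTSeq and mm10 are named in the submitters' processing notes. The tool that made the FPKM and its strand setting are not given in the sources used here. Whole reads could not be recovered from the values, so counting intervals could not be given, and depth is an estimate. The other 21 samples, in 7 groups, were not analysed here.

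From these values, log2(FPKM + 1) was tested with limma 3.58.1 (trended variance, R 4.3.3) for genes with a mean of at least 1 FPKM over the fitted libraries, with Benjamini-Hochberg adjustment over all tested genes and a threshold of 0.05. The 12 libraries of the oligomycin A experiment shared a fit, while the ADP and young bone tables were fitted separately. The scripts were tested on simulated data in which 200 genes were changed by 1 on the log2 scale. In the MLO-Y4 comparisons simulated, 90.5% to 93% of these were recovered, against 0% in young bone. Noise was drawn separately for each gene. Smaller changes, such as the synthetase differences called in MLO-Y4 cells, were not simulated, so their recovery is not known. The recipient response minus the direct response was not simulated. Other scalings, filters, pseudocounts, fits, a replicate block and leaving out each library were tried. Figures and promoter searches used Python 3.11.15.

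The members and the pathway and marker lists were chosen with earlier results of these data known. All members could be named; those called in any comparison, Lars2 and the highest and lowest of each set were described by library, and up to 4 called genes per pathway list, by p, were named. Coordinates are from GENCODE M21 (GRCm38), and promoter windows from RefSeq (GRCm38.p6).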

Additional observations from a re-analysis of the deposited data

How the results depend on the processing

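The count of cytosolic members higher in vehicle supernatant recipients than in vehicle cells, 10, became 6 with libraries rescaled to the same total, 4 in a fit of only those 6 libraries, and 3 to 10 with each library left out in turn. Farsb and Tars were called in all 17 alternatives, and Yars in 7. The mitochondrial count there, 1, became 0 with a filter at 5 FPKM, with the same total, in the fit of 6 libraries and with the replicate block, 3 with quantile normalization (2 higher and 1 lower) and 2 without the variance trend, and 0 to 1 with a library left out. With median-of-ratios scaling it was again 1, but lower and not higher. The cytosolic median minus the mitochondrial median, 0.35, became 0.21 with the filter at 5 FPKM, which leaves 1 mitochondrial member in each comparison of this experiment and in young bone, and 0.25 to 0.47 with a library left out.

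For oligomycin A against vehicle, the mitochondrial count of 2 became 0 with no filter, a filter at 5 FPKM, the same total, a fit of only those 6 libraries or the replicate block, 1 with the scaling that leaves out rRNA-like, 7S, satellite-like and mitochondrially encoded genes, 3 (1 higher and 2 lower) with either quantile normalization or median-of-ratios scaling, and 0 to 1 with a library left out. The cytosolic count of 0 became 1 with the filter at 5 FPKM, 1 with median-of-ratios scaling, 2 with quantile normalization and 0 to 1 with a library left out. The log2 difference of Lars2, -0.03, turned to 0.053 with the same total and ranged from -0.068 to 0.0043 with a library left out. For ADP it was -0.02 and ranged from -0.064 to 0.050. For the recipient response minus the direct response, the difference of medians, -0.10, became 0.022 with the filter at 5 FPKM and -0.24 to 0.0029 with a library left out.

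In young bone, the mitochondrial count of 1 (Lars2) became 0 with no filter, the same total, the scaling without repeat genes, median-of-ratios scaling, quantile normalization or the replicate block, and 0 to 1 with a library left out. The difference of medians, 0.21, became -4.26 with the filter at 5 FPKM, where Lars2 alone stands for the mitochondrial set, and -0.13 to 0.38 with a library left out. The causes were not tested.

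Same-numbered replicates did not deviate together. Correlations of their deviations were -0.01 to 0.04 for ADP, -0.14 to 0.06 for the oligomycin A experiment and -0.23 to -0.08 for young bone. Across unlike numbers, vehicle supernatant replicate 1 correlated at 0.22 with oligomycin A supernatant replicate 2 and at -0.22 with replicate 3 of that group. These values cannot show whether libraries were paired or shared a batch. With the replicate block, the cytosolic count between the vehicle groups was 10 and the other cytosolic counts 0. Counts for pathway lists without vehicle replicate 2 or vehicle supernatant replicate 1 were chosen after seeing the data.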

Other observations

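In both groups given supernatant, 1 library was the highest and another the lowest for most cytosolic synthetases. Vehicle supernatant replicate 1 was the highest library of its group for 18 of 20 members and replicate 2 the lowest for 16, and among oligomycin A supernatant recipients replicate 2 was the highest for 13 and replicate 3 the lowest for 15. In the ADP experiment no library was highest or lowest in its group for more than 11 of 20 members. Among oligomycin A cells no library was highest or lowest for more than 7 of 20. How often all genes follow such an order was not counted, so it may not be particular to the synthetases. The summed cytosolic level had an SD of 70.5 FPKM over oligomycin A supernatant libraries and 89.4 FPKM over vehicle supernatant libraries, against 1.72 FPKM over oligomycin A libraries and 40.4 FPKM over vehicle libraries (n = 3 each).

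The summed cytosolic level relative to the mitochondrial one was 14.99 to 18.2 in oligomycin A supernatant recipients, 14.5 to 18.7 in vehicle supernatant recipients, 13.8 to 14.5 in oligomycin A cells and 11.9 to 13.6 in vehicle cells. It was 12.4 to 12.6 with ADP and 11.96 to 12.6 without ADP. In young bone, without Lars2, it was 4.75 to 8.99 after medium transfer and 5.71 to 6.54 in controls.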
